A study of Homo sapiens with 6 samples.

Results

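The AP-1 and immediate early factors are a group of 10 transcription regulators, FOS, FOSB, FOSL1, FOSL2, JUN, JUNB, JUND, ATF3, EGR1 and IER2, taken by gene symbol from the 21462 genes of a count table. RNA sequencing was performed on 3 libraries of A431CT control cells, labelled WT, and 3 libraries of Dsg2KO cells, in which the DSG2 gene was disrupted by CRISPR/Cas9. A431 is an established line of human epidermoid carcinoma keratinocytes, and both conditions were grown in the same serum-containing medium with no other treatment. The labels do not say whether the Dsg2KO line is a single clone. The libraries of a condition are described by the study as biological replicates, and the p-values measure the spread between them. DSG2 encodes desmoglein-2, a cadherin of desmosomes, and the comparison addresses which transcripts differ between the A431CT and the Dsg2KO cells. An effect of DSG2 loss and any other difference between these lines cannot be told apart.

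AP-1 is a dimer of leucine zipper proteins. JUN proteins pair with themselves or with FOS or ATF proteins, whereas FOS proteins need a JUN partner to bind DNA. Several of these genes are immediate early genes, which growth factors induce within minutes through ERK, JNK and p38 kinases and without new protein synthesis, and their mRNAs are mostly short-lived. In keratinocytes AP-1 is known for its part in differentiation, wound repair and invasion, and the makeup of the dimer is known to bear on which genes are bound.

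The libraries held between 12845719 and 16255692 counts, and every Dsg2KO library was deeper than every A431CT library. Levels are given as counts relative to the library total (CPM, scaled with edgeR's TMM factors), and 3 counts, taken as the limit of detection, equal 0.184 to 0.236 CPM, which covers counting error only. DSG2 fell from 323 ± 6.08 to 51.9 ± 2.88 CPM (SD, n = 3; log2 fold change -2.64, adjusted p = 1.29e-14). Of 12 keratinocyte markers, 11 were tested, 3 rose and 3 fell. CDH1, DSP and EGFR were higher, and KRT6A fell from 8.44 ± 0.660 to 4.12 ± 0.825 CPM (SD, n = 3; log2 fold change -1.03, adjusted p = 0.000562). SFN and KRT5 fell by 0.46 and 0.13 on the log2 scale, the call of KRT5 being lost without A431CT replicate 1 (adjusted p = 0.0624), and KRT14 had at most 2 counts in any library. Their part in the results was not tested. Fibroblast markers summed to at most 0.590 CPM in any library. Leukocyte markers summed to 3.46 to 4.72 CPM in A431CT and 3.89 to 6.06 CPM in Dsg2KO cells, with the T cell marker CD3E at 0. Of 6 leukocyte markers, 2 were tested and neither passed, at log2 fold changes of -0.18 and 0.66. The marker at 0.66 lay higher in every Dsg2KO library than in any A431CT library. Endothelial markers summed to 9.61 to 12.7 CPM in A431CT and 15.6 to 16.5 CPM in Dsg2KO cells, and KDR had at most 3 counts. CDH5 rose in all 13 alternative fits as well. PECAM1 also rose and CLDN5 fell, but their calls held in 7 of 13 and 5 of 11 alternatives, and both were lost without A431CT replicates 2 or 3 and Dsg2KO replicates 2 or 3 (adjusted p = 0.0799 to 0.154), as was PECAM1 without Dsg2KO replicate 1 (adjusted p = 0.107) and CLDN5 without A431CT replicate 1 (adjusted p = 0.123). The part of these markers in the results was not tested, and the markers named were chosen after their values were seen.

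FOSL1, JUN and ATF3 rose in Dsg2KO cells, and JUND fell. FOS, FOSL2, JUNB, EGR1 and IER2 did not pass the test, and FOSB was listed at 0 in all 6 libraries. Of the 9 members that were tested, 3 were higher and 1 was lower at an adjusted p-value under 0.05 (edgeR's quasi-likelihood F test with Benjamini-Hochberg adjustment over 12857 genes), where 14.3% of all tested genes were higher, 15.3% lower and 29.6% changed either way. With a further minimum of 0.5 on the absolute log2 fold change, ATF3 alone of the members passed, where 2.99% of all tested genes were higher, 3.03% lower and 6.03% changed either way. Of the 9 members, 3 lay higher and 2 lower in every Dsg2KO library than in any A431CT library, where 21.2% of all tested genes lay higher, 21.4% lower and 42.6% either way. The median log2 fold change of the 9 members was 0.13, and that of all tested genes was -0.0048. In bulk RNA, a change in the number of cells that express a gene and a change in its RNA per cell cannot be told apart.

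**Figure D1:**
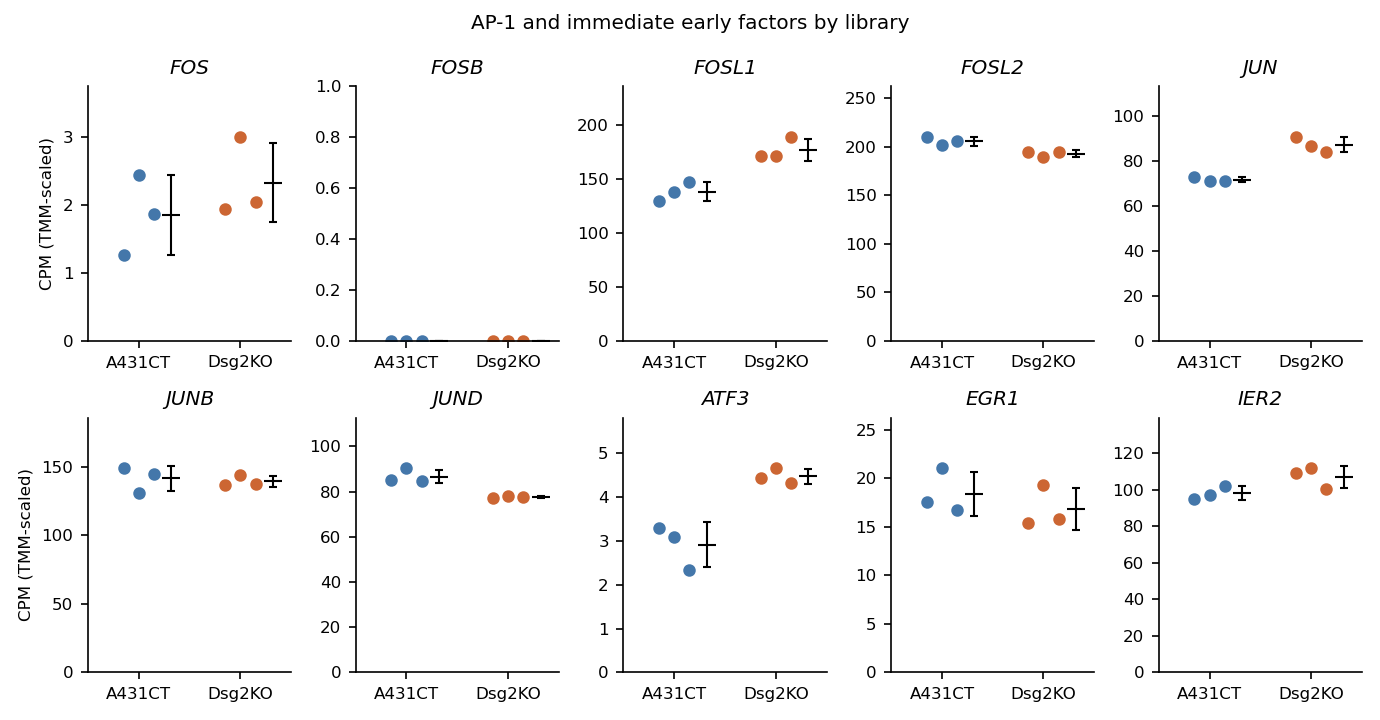
Level of each of the 10 factors in every library, in CPM on a linear axis that starts at 0. Circles are single libraries, blue for A431CT and orange for Dsg2KO cells, and the black marks give the mean and SD (n = 3). FOSL1, JUN and ATF3 are higher in all Dsg2KO libraries than in any A431CT library, and FOSL2 and JUND are lower.

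Promoters of the immediate early genes carry elements that bind the factors induced with them, so their sequences are shown before the values. RefSeq promoters (GRCh38.p14) matched 9 of the 10 members, all but FOSL1, with 10 promoters in all because ATF3 has 2. The 250 bases before each start were searched on both strands for the AP-1 element TGANTCA, for TGANNTCA, a pattern that includes the ATF/CRE element, and for the CArG box, which binds serum response factor. Each of these elements reads the same on both strands, and no matches overlapped. TGANTCA was in none of the 10 promoters and in 6.57% of 35116 RefSeq promoters, which says only that these letters are not in these windows. TGANNTCA was in the promoters of JUN and JUND, in the upstream promoter of ATF3 but not in its other promoter, and in 10.1% of all promoters. The CArG box was in the EGR1 promoter, at 2 places, and in 1.16% of all promoters. For these patterns too, a missing match says only that the exact letters are not in the 250 bases. Sites further upstream, or with other letters, were not searched for. Stretches around the matches are printed 5′ to 3′ on the strand of the gene, with the matched letters in capitals.

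JUN, chr1:58784067-58784154, minus strand, TGANNTCA match 60 to 67 bases before the start: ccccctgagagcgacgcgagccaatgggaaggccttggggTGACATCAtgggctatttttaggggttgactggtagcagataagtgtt
ATF3, chr1:212565244-212565331, plus strand, TGANNTCA match 116 to 123 bases before the start: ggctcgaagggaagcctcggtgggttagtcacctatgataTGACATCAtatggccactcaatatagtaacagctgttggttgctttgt
JUND, chr19:18281629-18281862, minus strand, TGANNTCA matches 193 to 200 and 47 to 54 bases before the start: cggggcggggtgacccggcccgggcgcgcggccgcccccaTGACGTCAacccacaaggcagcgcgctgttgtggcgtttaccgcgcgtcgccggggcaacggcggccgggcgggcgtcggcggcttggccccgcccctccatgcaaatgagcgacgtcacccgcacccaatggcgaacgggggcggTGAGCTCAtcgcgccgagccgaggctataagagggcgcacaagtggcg
EGR1, chr5:138465334-138465445, plus strand, CArG box matches 96 to 105 and 74 to 83 bases before the start: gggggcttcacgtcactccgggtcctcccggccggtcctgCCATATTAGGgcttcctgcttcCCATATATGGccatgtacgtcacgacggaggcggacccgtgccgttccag

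JUN and ATF3, which share the match TGACATCA, rose. JUND, whose matches are TGACGTCA and TGAGCTCA, fell. EGR1, with the CArG boxes, did not pass the test. Whether the matches bear on these changes was not tested, and counts per gene do not show which ATF3 promoter was in use. Genome positions of the members below are from GENCODE version 44 on GRCh38.

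Among the FOS family, FOSL1 (chr11:65892049-65900573, minus strand) encodes FRA1, a FOS protein without the strong transactivation domain of FOS that is abundant in invasive carcinoma cells. FOSL1 was at 130, 138 and 148 CPM in the A431CT libraries and at 171, 171 and 189 CPM in the Dsg2KO libraries. Every Dsg2KO library was above every A431CT library, and the mean rose from 139 ± 9.10 to 177 ± 10.4 CPM (SD, n = 3). The log2 fold change was 0.36 with an SE of 0.05 and a 95% interval of 0.24 to 0.47, or a rise of 28.0% (adjusted p = 0.000149). It rested on 1650 to 1908 counts per A431CT library and 2554 to 3062 per Dsg2KO library, and it passed the test in all 13 alternative fits.

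FOSL2 (chr2:28392448-28417317, plus strand) encodes FRA2, the closest relative of FRA1. Its levels were 210, 201 and 205 CPM in A431CT and 195, 189 and 194 CPM in Dsg2KO libraries. All Dsg2KO libraries were below all A431CT libraries, but the difference did not pass the test (log2 fold change -0.09, SE 0.04, adjusted p = 0.0825). Nor did it pass in any of the 13 alternative fits, where the adjusted p-value was 0.0644 to 0.247.

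FOS (chr14:75278826-75282230, plus strand), the prototype immediate early gene, had few counts. Its counts were 16, 33 and 24 in A431CT and 29, 49 and 33 in Dsg2KO libraries, or 1.26, 2.43 and 1.86 against 1.95, 3.00 and 2.04 CPM. The conditions overlapped, and replicate 2 was the highest of its condition in both. The log2 fold change of 0.33 (adjusted p = 0.477) had a 95% interval from -0.34 to 0.99, so that a fall of 0.34 and a rise of 0.99 both lay within it. FOSB (chr19:45467995-45475179, plus strand) had no count in any library, which allows up to 0.184 to 0.236 CPM depending on the library.

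Among the JUN family, JUN (chr1:58776845-58784048, minus strand), which encodes the c-Jun subunit and is a target of JNK, was at 73.0, 70.9 and 70.9 CPM in A431CT and at 90.6, 86.7 and 84.0 CPM in Dsg2KO libraries. The conditions did not overlap, and the gap between them was wider than the spread within either. JUN rose from 71.6 ± 1.21 to 87.1 ± 3.30 CPM (SD, n = 3), with a log2 fold change of 0.28, an SE of 0.05 and an interval of 0.18 to 0.39 (adjusted p = 0.000474), or by 21.6%. It passed the test in all 13 alternative fits.

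JUND (chr19:18279694-18281622, minus strand) encodes a JUN protein that is present in resting cells and is known to restrain proliferation in several cell types. It was at 85.0, 90.2 and 84.8 CPM in A431CT and at 77.0, 78.2 and 77.5 CPM in Dsg2KO libraries. All Dsg2KO libraries were lower, and the mean fell from 86.7 ± 3.08 to 77.6 ± 0.580 CPM (SD, n = 3). The log2 fold change was -0.16 with an SE of 0.05 and an interval of -0.26 to -0.06 (adjusted p = 0.0176), and the level fell by 10.6%. The call was lost without A431CT replicate 2 (-0.13, adjusted p = 0.0773) and without Dsg2KO replicate 1 (-0.15, adjusted p = 0.0634), and over the 13 alternatives the adjusted p-value was 0.00854 to 0.0773.

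JUNB (chr19:12791486-12793315, plus strand), an AP-1 subunit that can oppose c-Jun, was at 149, 131 and 145 CPM in A431CT and at 137, 144 and 137 CPM in Dsg2KO libraries. The conditions overlapped, and the log2 fold change of -0.02 (adjusted p = 0.801) had an interval of -0.13 to 0.08. Its sign turned with total counts as the scale and without A431CT replicate 1. JUNB shares 259 exonic bases with HOOK2 on the other strand, and how the authors' counting treated strand is not given in the sources used here. HOOK2 itself was at 49.0 and 47.4 CPM in A431CT and Dsg2KO cells (adjusted p = 0.644).

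ATF3 (chr1:212565334-212620777, plus strand) encodes a stress-induced partner of JUN proteins that represses transcription as a homodimer. Its counts were 42, 42 and 30 in A431CT and 66, 76 and 70 in Dsg2KO libraries, or 3.30, 3.10 and 2.33 against 4.43, 4.65 and 4.33 CPM. Every Dsg2KO library was above every A431CT library. ATF3 rose from 2.91 ± 0.515 to 4.47 ± 0.164 CPM (SD, n = 3), with a log2 fold change of 0.62, an SE of 0.22 and an interval of 0.15 to 1.08 (adjusted p = 0.0440), or by 53.5%. This was the largest change among the 9 tested members and also the least certain call, since the test was passed in 6 of 13 alternatives. The call was lost with DESeq2 (adjusted p = 0.0817) and without any 1 of A431CT replicates 2 and 3 (adjusted p = 0.0644 and 0.134) or Dsg2KO replicates 1, 2 and 3 (adjusted p = 0.0963, 0.112 and 0.0775), while the log2 fold change stayed between 0.48 and 0.72.

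EGR1 (chr5:138465479-138469303, plus strand), a zinc finger factor induced by ERK through serum response factor, was at 17.5, 21.0 and 16.7 CPM in A431CT and at 15.4, 19.3 and 15.8 CPM in Dsg2KO libraries. The conditions overlapped, and replicate 2 was again the highest of its condition in both. The log2 fold change was -0.13 (interval -0.37 to 0.11, adjusted p = 0.435). IER2 (chr19:13150411-13154911, plus strand), a short-lived nuclear protein of the immediate early response, was at 95.0, 97.4 and 102 CPM in A431CT and at 109, 112 and 100 CPM in Dsg2KO libraries. Of its Dsg2KO libraries, 2 were above and replicate 3 was within the A431CT range. The log2 fold change of 0.13 (adjusted p = 0.0754) did not pass the test, but it passed with total counts as the scale (adjusted p = 0.0371), with no low-count filter (adjusted p = 0.0465) and without Dsg2KO replicate 3 (adjusted p = 0.0244), and over the 13 alternatives its adjusted p-value was 0.0244 to 0.246. IER2 overlaps a pair of genes on the other strand, so its counts carry the same uncertainty of strand as those of JUNB.

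**Figure D2:**
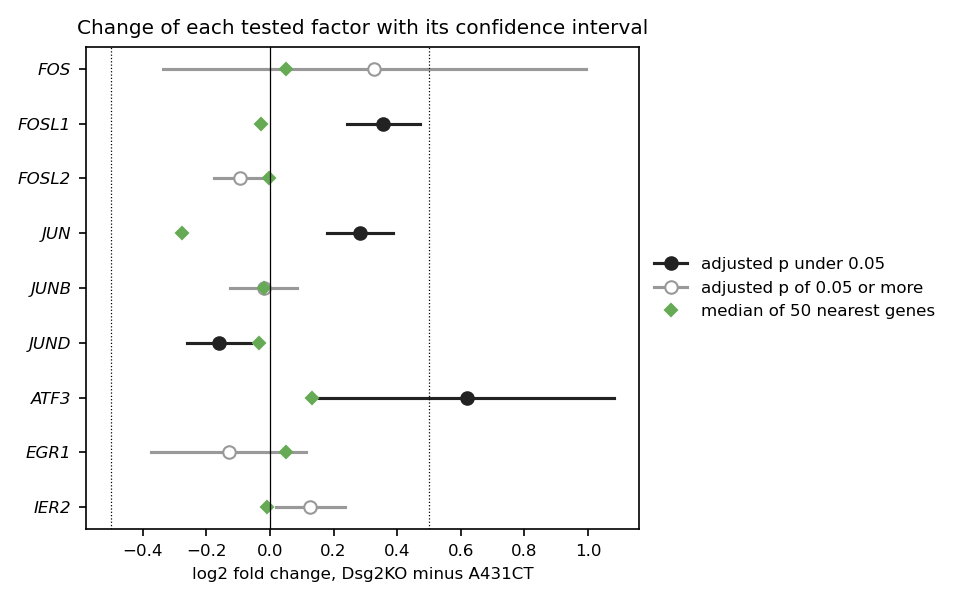
Log2 fold change of each of the 9 tested factors, Dsg2KO minus A431CT, as a circle with its 95% interval, filled where the adjusted p-value is under 0.05. Green diamonds give the median log2 fold change of the 50 nearest tested genes on the chromosome, and dotted lines mark -0.5 and 0.5. FOSL1, JUN and ATF3 lie to the right of 0, JUND lies to the left, and the diamond of JUN, at -0.28, lies on the other side of 0 from JUN itself.

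To compare levels between genes, CPM were divided by the length of the merged exons in kilobases. On this scale JUNB and FOSL1 were the most abundant members in A431CT cells, at 77.3 ± 5.07 and 73.4 ± 4.82 CPM per kb, within the spread of each other (SD, n = 3). JUND followed at 44.9 ± 1.60, IER2 at 31.9 ± 1.20, FOSL2 at 28.7 ± 0.612 and JUN at 19.8 ± 0.333 CPM per kb. EGR1 was at 5.88 ± 0.724 CPM per kb, and ATF3 and FOS, at 0.727 ± 0.129 and 0.581 ± 0.184 CPM per kb, were within the spread of each other at the bottom. In Dsg2KO cells FOSL1 was first, at 94.0 ± 5.49 CPM per kb, clear of JUNB at 76.2 ± 2.17. The order of the others was the same as in A431CT cells, with JUND at 40.2 ± 0.301, IER2 at 34.8 ± 1.94, FOSL2 at 26.9 ± 0.470, JUN at 24.0 ± 0.911, EGR1 at 5.37 ± 0.691, ATF3 at 1.12 ± 0.0411 and FOS at 0.731 ± 0.183 CPM per kb. The FOS family level was thus nearly all FOSL1 and FOSL2 in both conditions.

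As a share of the summed CPM per kb of the FOS family, FOSL1 made up 69.8, 71.7 and 72.8% in the A431CT libraries and 76.6, 76.9 and 78.3% in the Dsg2KO libraries. FOSL2 made up 28.0 ± 1.61% and 22.1 ± 0.894% (SD, n = 3), and FOS 0.564 ± 0.175% and 0.604 ± 0.167%. In the JUN family, JUN made up 13.8, 14.2 and 13.7% in A431CT and 17.9, 16.7 and 16.8% in Dsg2KO libraries. JUND made up 31.7 ± 1.95% and 28.6 ± 0.362%, and JUNB remained the main JUN transcript at 54.4 ± 2.18% and 54.2 ± 0.710%. The shares of FOSL1 and JUN were higher, and those of FOSL2 and JUND lower, in every Dsg2KO library than in any A431CT library, whereas those of FOS and JUNB overlapped. These shares are descriptions, restate the levels of the same libraries and carry no test.

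Ratios of counts within a library do not depend on the scale between libraries. Their values depend on the lengths of both genes, but their change between conditions does not. The ratio of FOSL1 to FOSL2 counts was 0.618, 0.686 and 0.721 in A431CT and 0.879, 0.908 and 0.975 in Dsg2KO libraries. The ratio of JUN to JUND counts was 0.858, 0.786 and 0.835 in A431CT libraries, with fewer JUN than JUND counts in each, and 1.18, 1.11 and 1.08 in Dsg2KO libraries, with more. JUN has the longer merged exons (3.62 against 1.93 kb), and per kb its level stayed below that of JUND in both conditions. That of JUN to JUNB was 0.507 ± 0.0295 and 0.625 ± 0.0316 (SD, n = 3). None of these ratios overlapped between conditions. FOSL1 and JUN were already higher, and FOSL2 and JUND lower, in every Dsg2KO library than in any A431CT library. The ratios therefore restate the levels of the same libraries and carry no test.

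**Figure D3:**
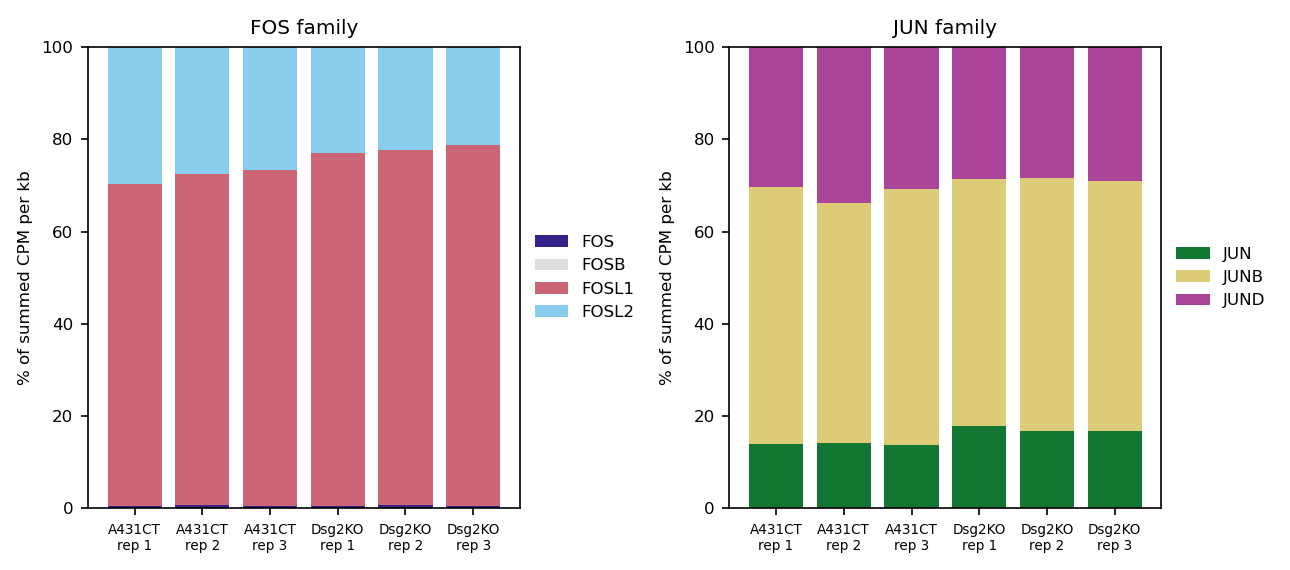
Share of each gene in the summed CPM per kb of the FOS family (left) and of the JUN family (right), in percent, with a stacked bar per library. The FOSL1 share is 69.8 to 72.8% in A431CT and 76.6 to 78.3% in Dsg2KO cells, the JUN share is 13.7 to 14.2% and 16.7 to 17.9%, and FOSB is at 0.

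Because neighbouring genes shifted together in places, each member was set against its 50 nearest tested genes on the chromosome. JUN rose within a stretch that was lower in Dsg2KO cells. Of its 50 neighbours, which span 12.8 Mb, 48 had a negative log2 fold change and 35 fell, and their median was -0.28. The 2 with a positive log2 fold change, ROR1 at 0.37 and CACHD1 at 0.39, rose as well and were the only neighbours above JUN (named after their values were seen). Relative to the median of its neighbours, the log2 fold change of JUN was 0.56.

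Around ATF3, on the other arm of the same chromosome, the neighbours were mostly higher. Over 13.4 Mb, 41 of 50 had a positive log2 fold change, 21 rose and 0 fell, with a median of 0.13 and ATF3 the fourth highest of the 51 genes. Relative to this median, the log2 fold change of ATF3 was 0.49. The neighbours of the other 7 tested members had medians between -0.04 and 0.05, against which FOSL1 stood at 0.39 and JUND at -0.13. The share of each change that goes with the chromosome stretch was not tested.

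**Figure D4:**
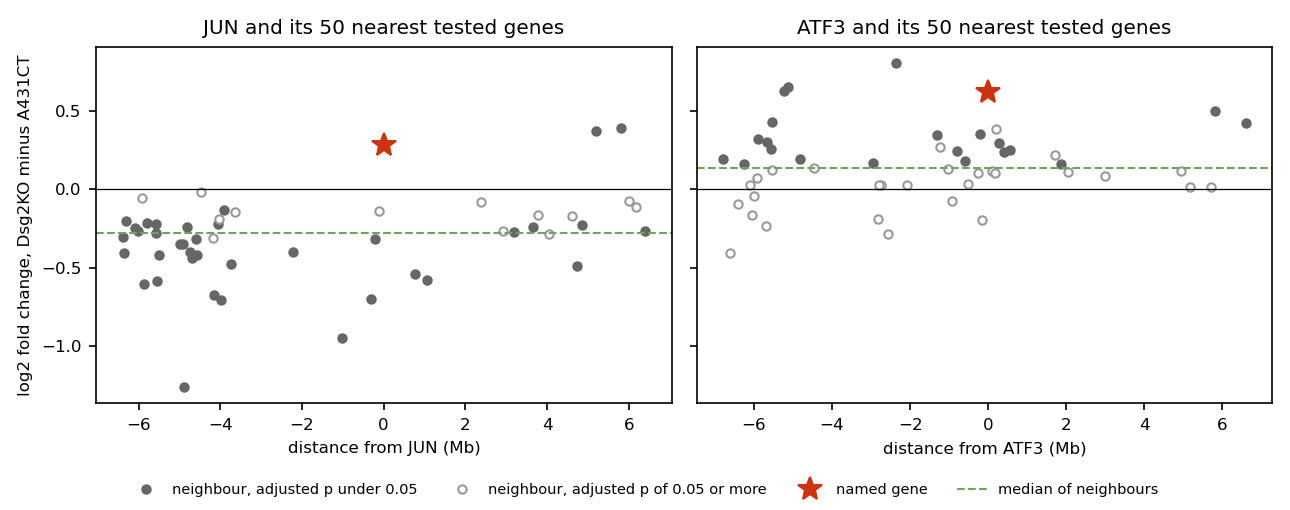
Log2 fold change of JUN (left) and ATF3 (right) and of the 50 nearest tested genes of each, against distance from the named gene in Mb. Filled circles passed an adjusted p-value of 0.05, the star is the named gene and the dashed line is the median of the neighbours, which is -0.28 around JUN and 0.13 around ATF3.

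Lists of related genes were then counted, with the backgrounds of 14.3% higher and 15.3% lower among all tested genes. Of 28 other immediate early genes, 23 were tested, 8 rose and 1 fell, with a median log2 fold change of 0.12. BTG2, an antiproliferative gene, rose from 10.5 ± 0.461 to 15.3 ± 1.97 CPM (SD, n = 3; log2 fold change 0.55, adjusted p = 0.00313). CSRNP1, a cysteine and serine rich nuclear protein, rose from 4.62 ± 0.361 to 7.12 ± 1.24 CPM (log2 fold change 0.62, adjusted p = 0.0179), and these were the 2 genes of the list past both thresholds. ZFP36L1, which promotes decay of AU-rich mRNAs, had the smallest p-value and rose from 235 ± 9.10 to 287 ± 9.73 CPM (log2 fold change 0.29, adjusted p = 0.000104). PHLDA1 fell from 518 ± 20.0 to 475 ± 9.93 CPM (log2 fold change -0.12, adjusted p = 0.0192). The median log2 fold change of the 50 nearest genes was -0.18 around PHLDA1, 0.11 around BTG2, 0.04 around ZFP36L1 and 0.0032 around CSRNP1. The other genes that rose were IER3, KLF4, KLF10, GADD45B and TRIB1, named after their values were seen, at log2 fold changes of 0.17 to 0.44. The call of CSRNP1 was lost without A431CT replicate 1 (adjusted p = 0.0542) or Dsg2KO replicate 1 (adjusted p = 0.102), and that of PHLDA1 without A431CT replicate 1 (adjusted p = 0.120) or Dsg2KO replicate 2 (adjusted p = 0.0763). TRIB1 lost its call with DESeq2 (adjusted p = 0.0707) and without A431CT replicates 1 and 2 and Dsg2KO replicate 3 (adjusted p = 0.0562, 0.0719 and 0.0856), and KLF10 without A431CT replicate 1 (adjusted p = 0.0605) and Dsg2KO replicate 3 (adjusted p = 0.0718). EGR2, EGR3, EGR4, NR4A3 and CCN2 had at most 8 counts in any library and were not tested.

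Of 17 other dimer partners, bZIP proteins of the ATF, BATF, CEBP, MAF and NFE2 families, 14 were tested, 3 rose and 2 fell, with a median log2 fold change of 0.08. JDP2, a repressor that pairs with JUN proteins, rose from 37.1 ± 0.781 to 48.1 ± 4.62 CPM (SD, n = 3; log2 fold change 0.37, adjusted p = 0.00122). MAFK, a small MAF protein, fell from 82.5 ± 1.28 to 68.2 ± 2.10 CPM (log2 fold change -0.28, adjusted p = 0.000533). CEBPG and MAFF rose at 0.16 and 0.27, and NFE2L1 fell at -0.19, on the log2 scale (named after their values were seen). CEBPG lost its call with DESeq2 (adjusted p = 0.0564) and without A431CT replicates 1 and 3 and Dsg2KO replicates 2 and 3 (adjusted p = 0.141, 0.0701, 0.0920 and 0.170). MAFF lost it with DESeq2 (adjusted p = 0.0643) and without A431CT replicate 2 and Dsg2KO replicates 1 and 2 (adjusted p = 0.0849, 0.104 and 0.0920).

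Of 27 upstream kinases and factors, all were tested, 5 rose and 2 fell, a share on the higher side near the background, and the median log2 fold change was -0.02. MAP3K1, a kinase upstream of JNK, rose from 37.9 ± 1.11 to 50.2 ± 3.16 CPM (SD, n = 3; log2 fold change 0.41, adjusted p = 0.000227). RPS6KA1, an ERK-activated kinase, fell from 77.7 ± 0.496 to 61.7 ± 1.23 CPM (log2 fold change -0.33, adjusted p = 0.000104). RPS6KA1 lies where the median of the 50 nearest genes was also -0.33. Among the others that passed were EGFR, NRAS and ELK4 (higher) and MAPK8, which encodes JNK1 (lower), at log2 fold changes between -0.18 and 0.21 and named after their values were seen. The median of the 50 nearest genes was 0.08 around EGFR, 0.20 around NRAS, 0.13 around ELK4 and -0.0062 around MAPK8. MAPK8 passed in only 2 of 13 alternatives, with the call lost when any library was left out (adjusted p = 0.0664 to 0.114) and with DESeq2 (adjusted p = 0.147).

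Genes of AP-1 turnover and of stress responses were counted next. Of 8 genes for the turnover of AP-1 proteins, 1 passed the test, with a higher level in Dsg2KO cells, and the median log2 fold change was 0.10. Of 8 genes of the integrated stress response, in which ATF4 induces ATF3, DDIT4 fell from 335 ± 37.3 to 227 ± 20.7 CPM (SD, n = 3; log2 fold change -0.56, adjusted p = 4.01e-05) and PPP1R15A rose from 57.7 ± 3.62 to 66.3 ± 0.0758 CPM (log2 fold change 0.20, adjusted p = 0.0127), a call lost without A431CT replicate 2 (adjusted p = 0.0560). The other 6, ATF4 and DDIT3 among them, did not pass. Handling of cells can induce immediate early genes together with heat shock genes, and its part in these results was not tested. Of 8 heat shock genes HSPB1 alone passed, with 138, 104 and 116 counts in A431CT and 6, 6 and 12 in Dsg2KO libraries (log2 fold change -4.16, adjusted p = 9.24e-08), and DNAJB1 had 0.15 (adjusted p = 0.0603). DNAJB1 rose with 7 of 13 alternatives, among them the fits without A431CT replicate 1 (adjusted p = 0.0224) and without Dsg2KO replicate 3 (adjusted p = 0.0197).

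Of 23 genes known as AP-1 targets in keratinocytes and carcinoma cells, 13 were tested, 8 rose and 0 fell, with a median log2 fold change of 0.40. None of the 13 was lower at an unadjusted p-value under 0.05 either, or with DESeq2. This leaves out the 10 genes with too few counts to test, and the list was written with earlier results of these data known. PLAU, which encodes urokinase, was at 91.6, 97.3 and 93.6 CPM in A431CT and at 140, 149 and 144 CPM in Dsg2KO libraries (log2 fold change 0.62, SE 0.04, adjusted p = 1.54e-07). All Dsg2KO libraries were above all A431CT libraries.

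The EGFR ligand gene HBEGF, also past both thresholds, rose from 16.2 ± 0.915 to 23.9 ± 1.05 CPM (SD, n = 3; log2 fold change 0.56, adjusted p = 0.000161). PLAUR, CCND1, CD44 and ITGA5, named after their values were seen, rose at log2 fold changes of 0.27 to 0.49. On the lower side the smallest p-value was that of HMOX1 (log2 fold change -0.16, adjusted p = 0.456). The list is not uniform. The matrix metalloproteinase genes, classical AP-1 targets, were at or near the limit of detection, with MMP1 at 3, 4 and 8 counts in A431CT and 1, 1 and 2 in Dsg2KO libraries, MMP3 at 1 count in a single A431CT library and MMP10 at 0. By qPCR the study reported more MMP1 and MMP3 mRNA in Dsg2KO than in A431CT cells, and by ELISA more MMP1 protein in the medium. The MMP1 counts ran the other way, lower in every Dsg2KO library than in any A431CT library. Counts this low were not tested against those measurements. MMP13 had 6, 2 and 2 counts in A431CT and 0 in every Dsg2KO library, and CXCL8 had 4, 17 and 10 in A431CT and 2, 4 and 5 in Dsg2KO libraries (both named after their values were seen). MMP13 was called lower when the low-count filter was dropped (adjusted p = 0.0339), and CXCL8 without A431CT replicate 1 (adjusted p = 0.0217). In all 10 genes of this list were not tested, the highest with 17 counts in a library, and those that were tested are not all the genes of the list.

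**Figure D5:**
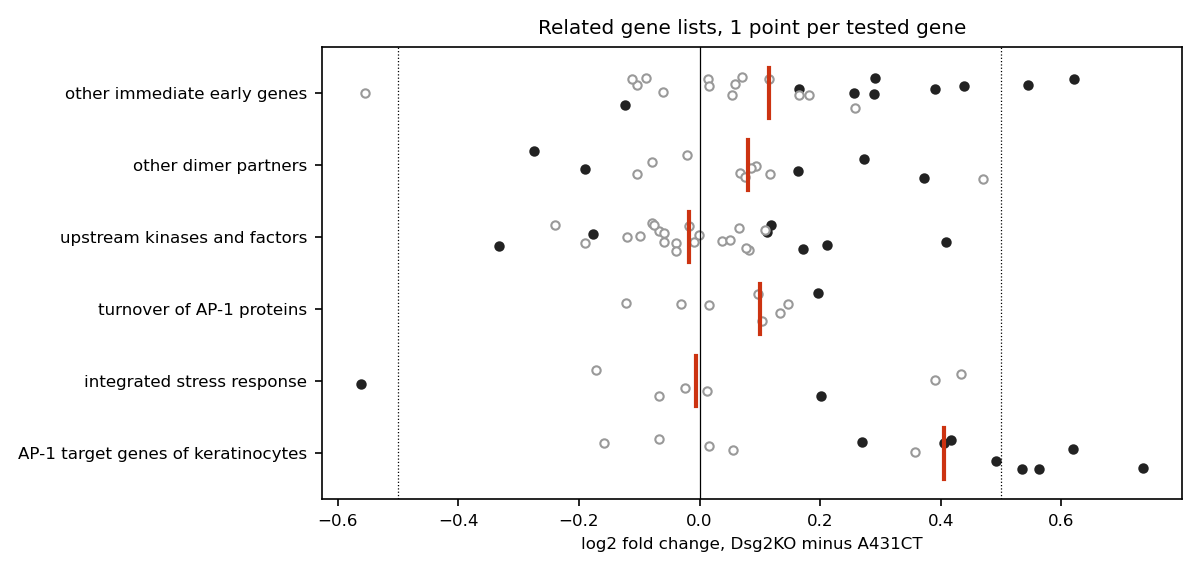
Log2 fold change, Dsg2KO minus A431CT, of each tested gene in 6 lists of related genes, spread vertically for legibility. Filled circles passed an adjusted p-value of 0.05, red bars are the list medians and dotted lines mark -0.5 and 0.5. The median of the AP-1 target genes is 0.40, and those of the other lists lie between -0.02 and 0.12.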

How the data were processed

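Paired-end reads of poly(A) RNA from 3 A431CT and 3 Dsg2KO libraries were aligned to GRCh38 and counted per gene by the authors in CLC Genomics Workbench. The deposited table holds whole-number counts per gene symbol, without normalization. The annotation and the strand setting are not given in the sources used here.

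Counts were analysed with R 4.3.3 and edgeR 4.0.16, using TMM factors, filterByExpr (minimum count 10, minimum total count 15) and quasi-likelihood F tests without covariates, with Benjamini-Hochberg adjustment over 12857 genes. Rose and fell mean an adjusted p-value under 0.05. The further minimum of 0.5 on the absolute log2 fold change is the study's. Libraries of a condition differed by more than counting error (chi-square per degree of freedom 2.64 to 4.12), so none was a copy of another. This does not show whether they came from separate cultures. The fit was tested on simulated data. Symbols were placed with GENCODE version 44, which matched 19491 of 21462.

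The members and lists were chosen with earlier results of these data known. The genes named are all 10 members, DSG2, MMP1 and MMP3, and from each list the genes past both thresholds and, on each side, the gene with the smallest p-value, except where stated, and some genes that this rule names are not reported here. Python 3.11.15 and matplotlib 3.10.9 were used for figures. Alternatives were DESeq2 1.42.0, the likelihood ratio test, RLE factors, total counts, other filters, a fold minimum of 1, a replicate block and each library left out in turn.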

Additional observations from a re-analysis of the deposited data

How the results depend on the processing

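FOSL1 and JUN passed the test in all 13 alternative fits, at log2 fold changes of 0.31 to 0.41 and 0.26 to 0.31. The number of members past both thresholds, 1, fell to 0 with DESeq2, with the replicate block and with a fold minimum of 1, and was 0 to 1 with a library left out. The number past an adjusted p-value of 0.05, 4, was 2 to 4 with a library left out, losing JUND and ATF3 without A431CT replicate 2 and without Dsg2KO replicate 1. Over all tested genes, same-numbered libraries shared little deviation from their condition (correlations 0.0215, 0.0219 and 0.0691). This does not show whether they were handled together. With the replicate block 3 members passed instead of 4, because ATF3 came to an adjusted p = 0.0510, and 3975 instead of 3802 of all genes passed. The log2 fold change of JUNB, near 0, changed sign with total counts (0.0024) and without A431CT replicate 1, and was -0.0730 to 0.0171 with a library left out. Among the lists, the other dimer partners numbered 3 past the test with DESeq2 and 3 to 5 with a library left out. The turnover list numbered 2 with total counts and 1 to 2 with a library left out. The integrated stress response list numbered 1 to 3 with a library left out. The heat shock list numbered 2 with total counts, no low-count filter, DESeq2 and the replicate block, and 1 to 2 with a library left out, each time through DNAJB1. With the length of the longest transcript in place of merged exons, the shares became 0.777% and 0.830% for FOS, 15.2% and 18.7% for JUN in A431CT and Dsg2KO cells, and 53.2% for JUNB and 28.1% for JUND in Dsg2KO cells, through the change in length alone. Relative to its neighbours JUN stood at 0.56. Over the alternative fits 2891 to 4077 genes passed an adjusted p-value of 0.05. Depth limits FOS, with 16 to 49 counts, and ATF3, with 30 to 76.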
